A study of Arabidopsis thaliana with 4 samples.

Results

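EMBRYO DEFECTIVE (EMB) genes are Arabidopsis genes identified by mutants whose seeds abort or whose embryos stop developing, and most carry a number from mutant collections. Most encode proteins that any growing cell needs, such as ribosomal proteins, splicing factors, replication proteins, plastid proteins and enzymes of basic metabolism. LEAFY COTYLEDON1 (LEC1), the protein mapped here, belongs to the NF-YB proteins, which act in the trimeric NF-Y transcription factor, and directs the filling of the embryo with reserves. The members were chosen by name alone: a protein-coding gene entered where its symbol or a synonym was EMB and digits. No measured value entered this rule, although the group was proposed with results of the same peak list known. The rule found 256 genes. LEC1 and a gene of acetyl-CoA carboxylase were left out, which left 254 of 27444 protein-coding genes on chromosomes 1 to 5. Of the 254, 160 have an EMB number as their symbol and 94 only as a synonym.

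The material was seed at the bent cotyledon stage from plants homozygous for lec1-1 that also carry LEC1:LEC1-GFP:LEC1, a transgene for LEC1 joined to green fluorescent protein between LEC1 flanking sequences. Chromatin pulled down with an antibody against the fluorescent tag (LEC1-GFP ChIP, 2 biological replicates) was compared by the authors with unprecipitated chromatin (input, 2 biological replicates) of the same genotype. Both groups therefore carry the mutation and the tagged protein, and whole seeds were used, so seed coat and endosperm chromatin was present beside that of the embryo. The data are 1 list of 6356 peaks for the whole series, without values per sample: no replicate error can be given, the read depth is unknown, and every share below is a description without a test. Intervals are 95% exact binomial intervals, cover counting error only, and take each gene as independent, which neighbours with 1 common peak are not.

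LEC1-GFP peaks were found at a smaller share of EMB genes than of other named genes. A gene was counted where at least 1 bp of a peak lay in it or within 1 kb of it. By this count 48 of 254 EMB genes (18.9%, 14.3 to 24.3%) had a peak, against 3042 of 10114 other named protein-coding genes (30.1%, 29.2 to 31.0%), and the intervals do not overlap. The remaining 206 EMB genes had none. Genes with an EMB number as symbol had a peak at 26 of 160 (16.2%, 10.9 to 22.9%). Those with it only as a synonym had one at 22 of 94 (23.4%, 15.3 to 33.3%), an interval that covers the 30.1%. For these 94 genes alone a gap is therefore not shown, and the intervals of both kinds of EMB gene overlap. The EMB share was nearer to that of all other protein-coding genes (24.6%) and to that of genes without a name (21.3%, 20.7 to 22.0%).

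The size of the gap depended on which named genes were set beside the EMB genes. Genes named in comparable mutant collections for embryo sac and early seed defects or pigment defects (MEE, EDA, PDE and UNE with a number) had a peak at 37 of 153 (24.2%, 17.6 to 31.8%). Named genes of 4 core cellular families were found by words in their names or by symbol, without a check of each gene's function. They had a peak at 30 of 154 (19.5%, 13.5 to 26.6%), almost the EMB share. Within these families the share was 16.1% for ribosomal proteins, 25% for splicing, 18.5% for replication and 21.6% for the proteasome and COP9 signalosome. The intervals of the EMB genes and of these sets overlap, and both sets were added after the EMB values had been seen.

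A list of other genes without an EMB number, chosen by symbol as embryo genes, had a peak at 13 of 45 (28.9%, 16.4 to 44.3%). A symbol on the list does not show that the embryo needs the gene. Its highest scores were 3.46 at NS1, an asparaginyl-tRNA synthetase of organelles, 3.04 at TOZ, a nucleolar protein of early embryo division, and 3.00 at SYP111 (KNOLLE), a syntaxin of cell plate formation that had 2 peaks. RPK1, a receptor kinase of embryo patterning, also had 2 peaks, with a top score of 2.90. AGO1, the main microRNA effector, had a weak peak of 2.07, and the patterning genes MP, WOX2 and WOX8 had no peak. This share lay close to that of named genes in general, with an interval that also covers the EMB share.

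**Figure D1:**
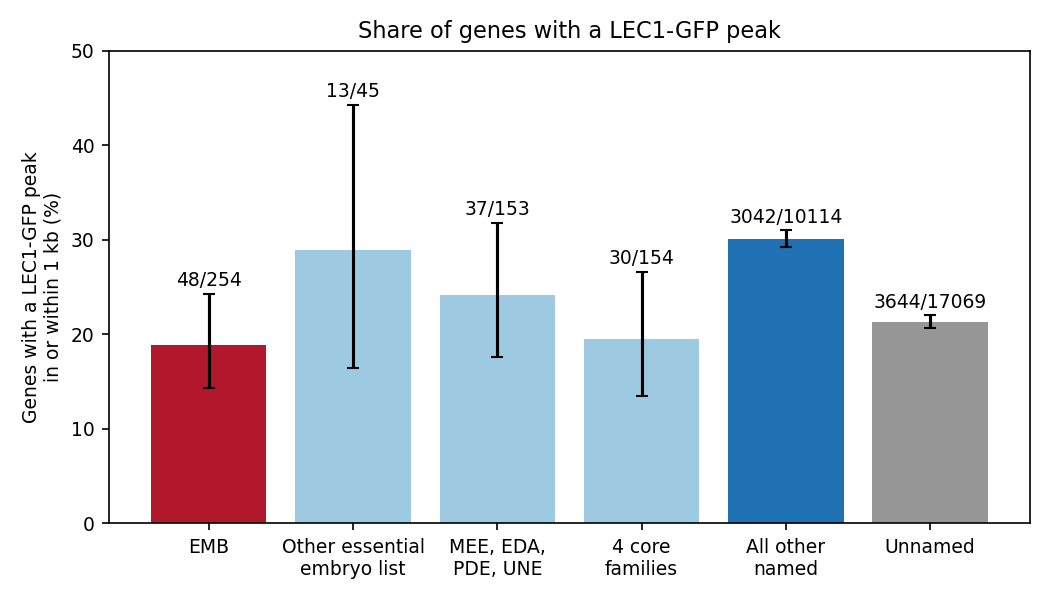
Share of genes with a LEC1-GFP peak in or within 1 kb (vertical axis, percent) for 254 EMB genes, 3 smaller sets of named genes, all 10114 other named genes and 17069 unnamed genes. Bars give the share, lines the 95% exact binomial interval and fractions the counts; the EMB bar is at 18.9% and that of other named genes at 30.1%.

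EMB genes were longer, with a median of 3110 bp against 2475 bp for other named genes. Under 2000 bp, 7 of 49 EMB genes had a peak (14.3%) against 26.5% of other named genes. From 2000 to 4000 bp it was 25 of 117 (21.4%) against 31.6%, and over 4000 bp 16 of 88 (18.2%) against 33.1%. The differences were -12.2, -10.2 and -14.9 percentage points from the shortest to the longest class. The part of gene length in the difference was not tested.

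The setting of EMB genes on the chromosomes differed in how crowded it was. A second protein-coding gene within 1 kb was lacking at 7.87% of EMB genes, against 20.3% of other named genes, and 52.0% had 2 or more such neighbours, against 38.2%. With no neighbour 25% of 20 EMB genes had a peak (8.66 to 49.1%), against 32.1% of other named genes. With exactly 1 the shares were 22.5% (14.9 to 31.9%) and 30.8%. With 2 or more, 20 of 132 EMB genes had a peak (15.2%, 9.51 to 22.4%) against 28.2%. The EMB intervals overlap, so an order by number of neighbours cannot be read from them. The part of crowding in the difference between EMB and other named genes was not tested. EMB genes were no more frequent in the gene-poor 25% of 500 kb windows, which held 7.87% of them and 7.71% of other named genes.

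By chromosome, the share of EMB genes with a peak was 11.7% of 60 on chromosome 1, 16.3% of 43 on chromosome 2, 20.9% of 43 on chromosome 3, 18.9% of 37 on chromosome 4 and 25.4% of 71 on chromosome 5. Other named genes ranged only from 29.8% to 30.4%. The EMB intervals of chromosomes 1 and 5 overlap (4.82 to 22.6% and 15.8 to 37.1%), so an order of the chromosomes cannot be read from them. Chromosome 5 held 18 of the 48 EMB genes with a peak and the 2 highest scores among them, at EMB175 and EMB269.

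The EMB share was the lower at the gene and around it, and came close to that of other named genes only at 10 kb. A peak overlapped the gene itself at 24 of 254 EMB genes (9.45%, 6.15 to 13.7%) against 16.5% of other named genes. In the 1 kb outside either end the count was 43 (16.9%, 12.5 to 22.1%) against 25.9%. Within 2 kb the shares were 24.8% and 37.3%, within 3 kb 30.7% and 43.9%, within 5 kb 48.0% and 55.4%, and within 10 kb 71.7% and 73.7%. The median distance to the nearest peak was 5261 bp for EMB genes, 3952 bp for other named genes and 5784 bp for unnamed genes.

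**Figure D2:**
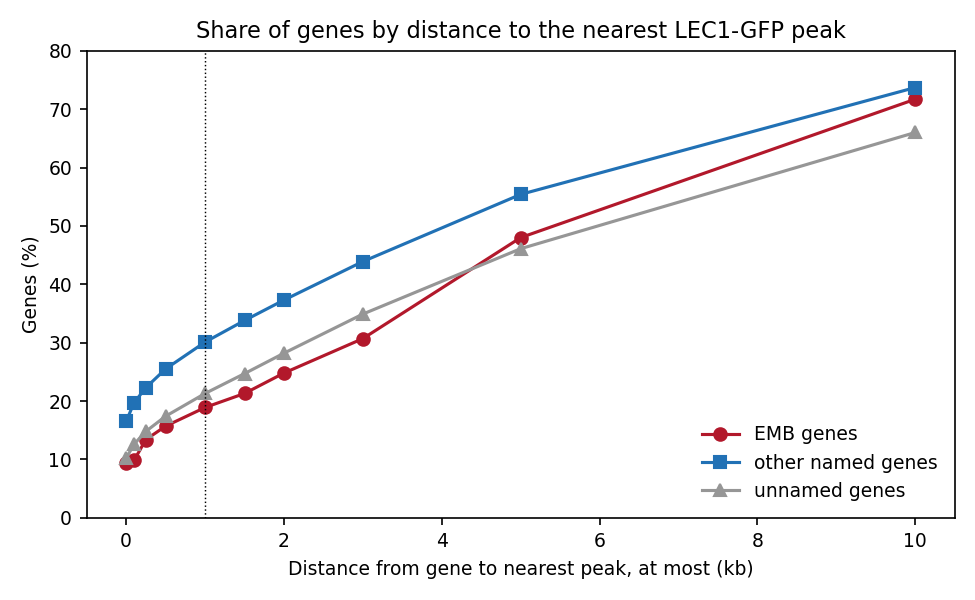
Cumulative share of genes (vertical axis, percent) whose nearest LEC1-GFP peak lies within the distance on the horizontal axis (kb, edge to edge; 0 means overlap), for EMB genes, other named genes and unnamed genes; the dotted line marks 1 kb. EMB genes run below other named genes up to 5 kb (48.0% against 55.4%) and come close to them at 10 kb (71.7% against 73.7%).

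Over all EMB genes with a peak, the score was much like that at other genes. The score is a value that the authors gave each peak. Its scale is not stated in the labels or the list, where it ran from 1.92 to 4.51. The highest score per gene had a median of 2.48 over the 48 EMB genes (order-statistic interval 2.26 to 2.70). Over other named genes with a peak it was 2.52 (2.50 to 2.54). With an EMB number as symbol the median was 2.29 (2.14 to 2.66), and with it only as a synonym 2.55 (2.26 to 2.97). Both of these intervals cover the 2.52. Genes with a score of 3 or more made up 7 of 254 EMB genes (2.76%, 1.12 to 5.60%) and 5.95% of other named genes, and a score of 3.75 or more was found at 0 EMB genes and at 0.455% of other named genes, a share so small that a count of 0 among 254 genes is uninformative. Among genes with a peak only, a score of 3 or more was found at 14.6% of EMB genes and 19.8% of other named genes. A second peak was rare: LCB1 alone of the 254 EMB genes had 2 peaks (0.394%), against 5.61% of other named genes.

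By midpoint, most peaks at EMB genes lay outside the gene, as at other named genes. By any overlap 24 of the 49 (49.0%) reached into the EMB gene, a share of peaks not computed for other named genes. Of 49 peaks, 39 had their midpoint outside the EMB gene (79.6%, 65.7 to 89.8%), against 70.2% of the peaks at other named genes, and 24 of the 49 lay more than 300 bp from the end (49.0%, 34.4 to 63.7%, against 36.8%). Of the 10 midpoints inside, 9 were within 300 bp of an end. That is 18.4% of the 49 peaks (8.76 to 32.0%), against 21.0% at other named genes. At PEL3 alone the midpoint lay deeper in the gene (2.04%, 0.0517 to 10.9%, against 8.81%). All these intervals by midpoint cover the share at other named genes, so no difference in place is shown. Peak width was ordinary, with a median of 249 bp both at EMB genes and over the list, and a range of 49 to 599 bp at EMB genes. Both ends of a gene were treated alike, because the strand of the genes was not used here.

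Many of these peaks were shared with a neighbouring gene or lay nearer to it, at shares whose intervals cover those of other named genes. A further protein-coding gene within 1 kb of the same peak was found for 32 of the 49 peaks (65.3%, 50.4 to 78.3%, against 57.7% at other named genes). For 17 peaks another gene was nearer to the midpoint (34.7%, 21.7 to 49.6%, against 27.4%), and 10 midpoints lay inside that other gene. With each peak given only to its nearest gene, 31 EMB genes (12.2%) had a peak, against 22.8% of other named genes. No peak was shared by 2 EMB genes.

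**Figure D3:**
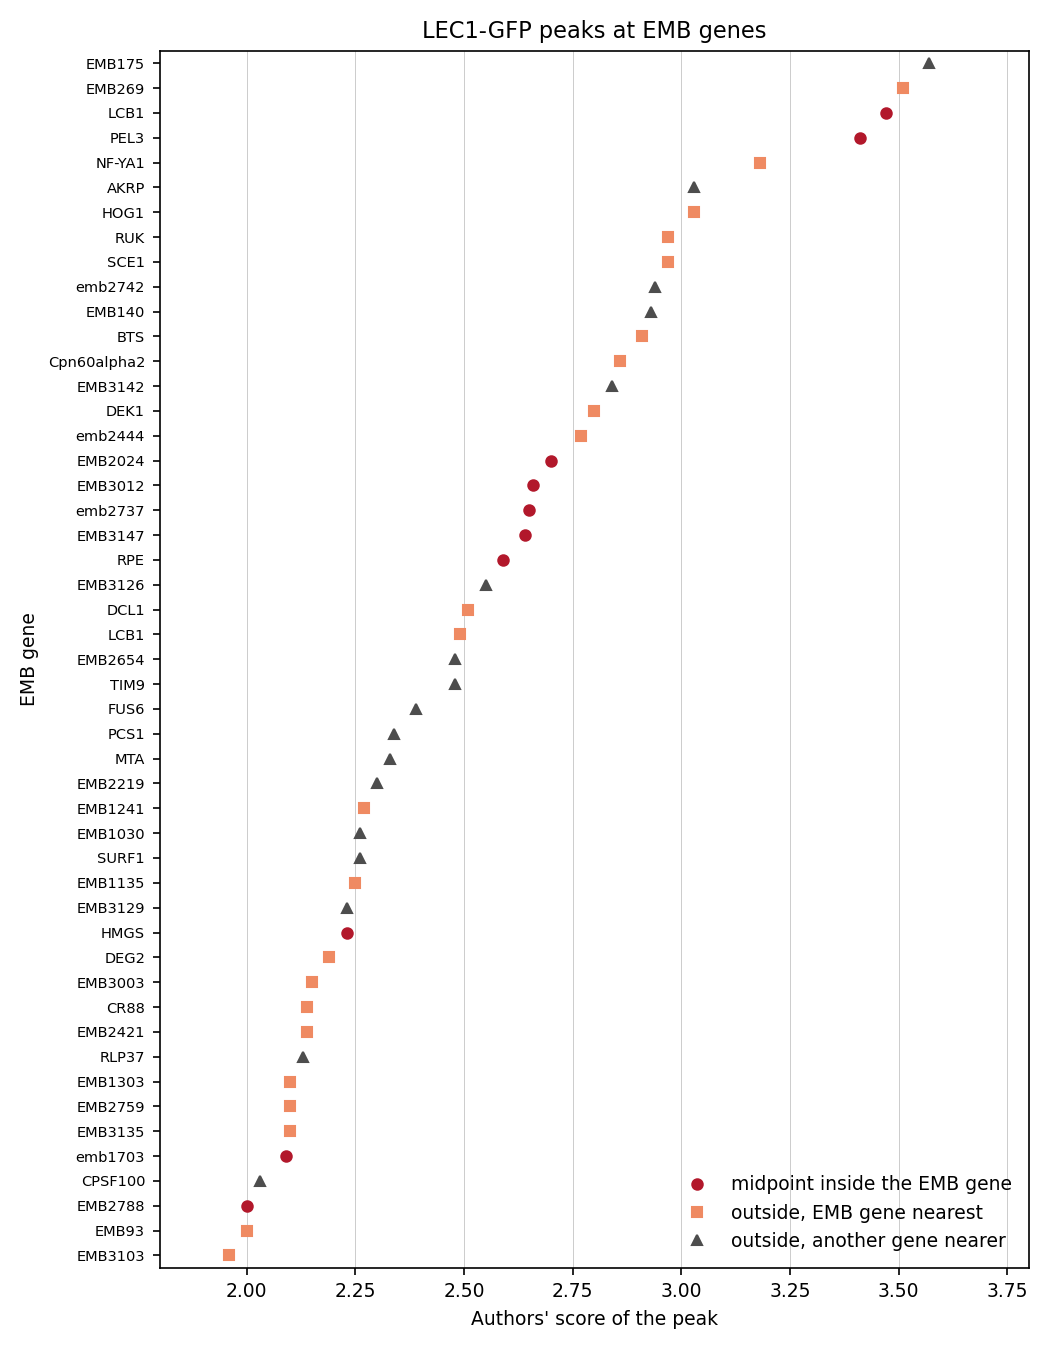
All 49 LEC1-GFP peaks at the 48 EMB genes with a peak, ordered by the authors' score (horizontal axis, no unit given), with LCB1 shown for both of its peaks. Circles mark midpoints inside the EMB gene, squares midpoints outside with the EMB gene nearest, and triangles midpoints nearer to another gene; scores run from 3.57 at EMB175 to 1.96 at EMB3103.

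Peak positions below are on TAIR10. A distance from a peak to a gene is from the midpoint of the peak unless its edge or a nearest peak is named. Those distances are edge to edge. Any other gene in reach means a protein-coding gene, since no other kind was counted. Role groups were formed by hand after the peaks had been seen. The interval of each role group covers the 18.9% of all EMB genes. All but that of DNA replication and chromosome genes also cover the 30.1% of other named genes. Enzymes of basic metabolism were the largest role group among the EMB genes with a peak, 9 of 29 (31.0%, 15.3 to 50.8%), a share near the 30.1% of other named genes. LCB1 (EMB2779), a subunit of serine palmitoyltransferase that starts sphingolipid synthesis, had a score of 3.47 (chromosome 4, 17221401 to 17221749), with the midpoint 50 bp inside 1 end. Its second peak, with a score of 2.49 (chromosome 4, 17217251 to 17217549), lay 509 bp outside the other end, so peaks sat on both sides of the gene. PEL3 (EMB3009), an acyltransferase needed for the cuticle and also known as DCR, had a score of 3.41 (chromosome 5, 8077351 to 8077699). That midpoint was 1213 bp from the nearer end of the gene, with no other gene within 1 kb. HOG1 (EMB1395), the S-adenosylhomocysteine hydrolase of the methyl cycle, had a score of 3.03 (chromosome 4, 8054501 to 8054799), with the midpoint 23 bp outside the gene.

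The other enzymes scored below 3. The CTP synthase gene emb2742 had a score of 2.94, from a peak between it and HUA1 at 368 and 351 bp. EMB2024, the 6-phosphogluconolactonase PGL3 of plastids, had a score of 2.70 with the midpoint inside the gene, next to its relative PGL4 at 595 bp. RPE (EMB2728), ribulose-5-phosphate epimerase, had a score of 2.59, also inside the gene. EMB3147, a malonyltransferase of plastid fatty acid synthesis, had a score of 2.64, 126 bp inside the gene and with no other gene in reach. HMGS (EMB2778) of the mevalonate pathway had 2.23, and EMB3003, an acyltransferase subunit of plastid pyruvate dehydrogenase, had 2.15. Of the 9 enzyme genes, 8 were the gene nearest to their peak, all but emb2742. Among enzymes without a peak were GLA1, a folate enzyme, CYT1, which makes GDP-mannose, and the serine decarboxylase gene EMB1075, with the nearest peak at 4914, 11969 and 18081 bp.

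Genes for organelle RNA proteins are the largest role group, with a peak at 5 of 30 (16.7%, 5.64 to 34.7%), near the 18.9% of all EMB genes. Pentatricopeptide repeat proteins, which bind and process plastid and mitochondrial transcripts, had 3 of 27. EMB175 had the highest score of all EMB genes, 3.57 (chromosome 5, 1010401 to 1010799), but the midpoint lay in the neighbour AT5G03795 and 166 bp outside EMB175. EMB2654 had a score of 2.48 from a peak that was nearer to AT2G41710, and EMB3103 had the lowest score of the EMB genes, 1.96. Of 3 genes for mTERF proteins, which act on organelle transcripts, 2 had a peak, too few genes for a share to be read. They were EMB2219 with 2.30, from a midpoint inside AT2G21720, and EMB93 with 2.00, its edge 841 bp away. EMB2279, DG1 and EMB975, further pentatricopeptide repeat genes, had their nearest peak at 1227, 1992 and 3556 bp.

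Among genes for protein synthesis, ribosomal protein genes had a peak at 1 of 16 (6.25%, 0.158 to 30.2%), an interval that covers both the 18.9% of all EMB genes and the 30.1% of other named genes. The gene was EMB3126, for plastid protein L1, with a score of 2.55 from a peak 103 bp outside it and 12 bp from AT3G63480. The other 8 plastid and all 7 cytosolic ribosomal protein genes had none, among them EMB1080, emb1473 and UBQ1. Aminoacyl-tRNA synthetase genes, which charge tRNAs, had 1 of 6 (16.7%, 0.421 to 64.1%), EMB1030 for alanyl-tRNA synthetase with a score of 2.26. That peak lay 797 bp away and was nearer to AT5G22810. The arginyl-, valyl- and leucyl-tRNA synthetase genes emb1027, EMB2247 and EMB2369 had no peak. Of 11 synthetase genes without an EMB number in the list of other embryo genes, 5 had a peak. They were NS1, EDD1, ERS, OVA1 and OVA9 with scores of 3.46, 2.51, 2.39, 2.37 and 2.09. These 11 were grouped after their values were seen. The counts are too small to be compared with the 1 of 6 or with the 30.1% of other named genes.

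DNA replication and chromosome genes had no peak at any of 14 (0%, upper bound 23.2%). They include TIL1, the catalytic subunit of DNA polymerase epsilon, EMB2775 and EMB1968 of replication factor C, ORC5 of the origin recognition complex and SMC5. The 7 genes for the cytoskeleton, division and membrane traffic had none either (upper bound 41.0%). Among them, GN (GNOM, EMB30), which directs the traffic of auxin carriers, had its nearest peak at 7097 bp, FASS at 4223 bp and TTN1 at 4130 bp. Both groups are too small for a share of 0 to be told apart from that of the EMB genes as a whole by these intervals. The bound of 23.2% does lie below the 30.1% of other named genes, whereas that of 41.0% does not. Both groups were formed with the peaks known.

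Splicing genes had a peak at 2 of 13 (15.4%, 1.92 to 45.4%). EMB140, a factor that recycles spliceosomal particles, had a score of 2.93 (chromosome 4, 12580151 to 12580549), but the midpoint lay inside GH9A3, a cellulase gene, and the edge 969 bp from EMB140, the farthest of all EMB genes that were counted. emb2444, for an SF3b subunit, had a score of 2.77 (chromosome 2, 8030701 to 8030999), 110 bp outside the gene and with no other gene in reach. SUS2, for the central splicing factor PRP8, and emb1507, for a spliceosomal helicase, had no peak. Other RNA genes had 3 of 18 (16.7%, 3.58 to 41.4%). The intervals of the splicing and the other RNA genes cover both the 18.9% of all EMB genes and the 30.1% of other named genes. DCL1 (EMB60), the nuclease that makes microRNAs, had 2.51 and the midpoint 546 bp outside. MTA (EMB1706), the messenger RNA adenosine methylase, had 2.33 in AT4G10750, and CPSF100, a polyadenylation factor, had 2.03 in AT5G23890. Of these 3, DCL1 was the gene nearest to its peak.

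Among 5 genes for plastid GTPases and ankyrin proteins, 2 had a peak (40.0%, 5.27 to 85.3%), both with a score above 3. The group was formed with the peaks known, and its interval covers the 18.9% of all EMB genes and the 30.1% of other named genes. EMB269, for the plastid GTPase ObgC, had a score of 3.51 (chromosome 5, 6170151 to 6170749), the second highest of the EMB genes, from the widest peak at any of them, 599 bp. No other protein-coding gene was in reach of this peak, and its edge lay 823 bp from EMB269. AKRP (EMB16), a plastid ankyrin protein of embryo and chloroplast development, had a score of 3.03 (chromosome 5, 26416651 to 26417199), whereas the related ankyrin gene EMB506 had its nearest peak at 20812 bp. The AKRP peak was nearer to AT5G66052 and AT5G66053, at 1 and 118 bp.

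Plastid protein import, folding and proteolysis genes had 4 of 13 (30.8%, 9.09 to 61.4%). The chaperonin gene Cpn60alpha2 (EMB3007) had a score of 2.86 (chromosome 5, 6274751 to 6275299), with the midpoint 426 bp outside the gene. Weak peaks lay at EMB1241, a GrpE co-chaperone, with 2.27, at the protease gene DEG2 with 2.19 and at CR88, the plastid HSP90, with 2.14. Each of these 4 was the gene nearest to its peak. The outer envelope channel gene OEP80 and the protease gene FTSH12 had no peak.

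NF-YA1 (EMB2220) is the member closest to LEC1 in function, since NF-YA proteins bind DNA in a complex with NF-YB and NF-YC. It had a score of 3.18 (chromosome 5, 4053601 to 4054049), with the midpoint 156 bp outside the gene, an overlap with the gene and no other gene in reach. The other genes of its group, for regulators of transcription and chromatin, had no peak: MEA, a Polycomb histone methyltransferase of the endosperm, NAC007 and AGL81. NAC007 missed the 1 kb limit narrowly, at 1173 bp.

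Genes for ubiquitin, SUMO, the COP9 signalosome and the proteasome had 3 of 12 (25%, 5.49 to 57.2%). SCE1, the SUMO-conjugating enzyme, had a score of 2.97 (chromosome 3, 21430201 to 21430749), with the midpoint 77 bp outside the gene. BTS (EMB2454), a ubiquitin ligase of iron balance, had a score of 2.91 (chromosome 3, 6273701 to 6274099), 66 bp outside the gene and alone. FUS6, COP9 signalosome subunit 1, had a score of 2.39 from a peak inside HDG1. The light-signalling ubiquitin ligase COP1 and the signalosome subunits COP8 and COP9 had none.

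Genes for signalling proteins and the nuclear pore make up small groups, with a peak at 2 of 3 (66.7%, 9.43 to 99.2%) and 2 of 4 (50.0%, 6.76 to 93.2%). Both intervals cover the 18.9% of all EMB genes and the 30.1% of other named genes. RUK (EMB3013), a kinase of cell division, had a score of 2.97 (chromosome 5, 6234501 to 6234899), where the midpoint lay 332 bp outside the gene and 449 bp from AGP25. DEK1, the calpain of epidermis identity, had a score of 2.80 (chromosome 1, 20664951 to 20665349), 40 bp outside the gene, and the kinase gene YDA had its nearest peak at 2828 bp. Of 4 nuclear pore genes, EMB3142 had a score of 2.84 (chromosome 5, 20819901 to 20820199) and EMB3012 had 2.66, inside the gene. The EMB3142 peak lay 421 bp from EMB3142 and 18 bp from OLEO3, the gene of an oleosin that coats seed oil bodies.

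In mitochondria and peroxisomes 2 of 8 genes had a peak, TIM9, a protein import factor, with 2.48 and the midpoint inside SOS5, and SURF1, a cytochrome oxidase assembly factor, with 2.26 inside AT3G17920. Neither was the gene nearest to its peak. Among the 72 EMB genes not placed in a role group 11 had a peak (15.3%, 7.88 to 25.7%), with scores from 2.00 to 2.65. Their median score was 2.13 (2.09 to 2.34), below the 2.52 (2.50 to 2.54) of other named genes with a peak. These 72 are what was left after grouping with the peaks known. The highest was at emb2737, inside the gene, followed by PCS1, an aspartic protease gene, with 2.34 from a peak 40 bp from FHL and 307 bp from PCS1.

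**Figure D4:**
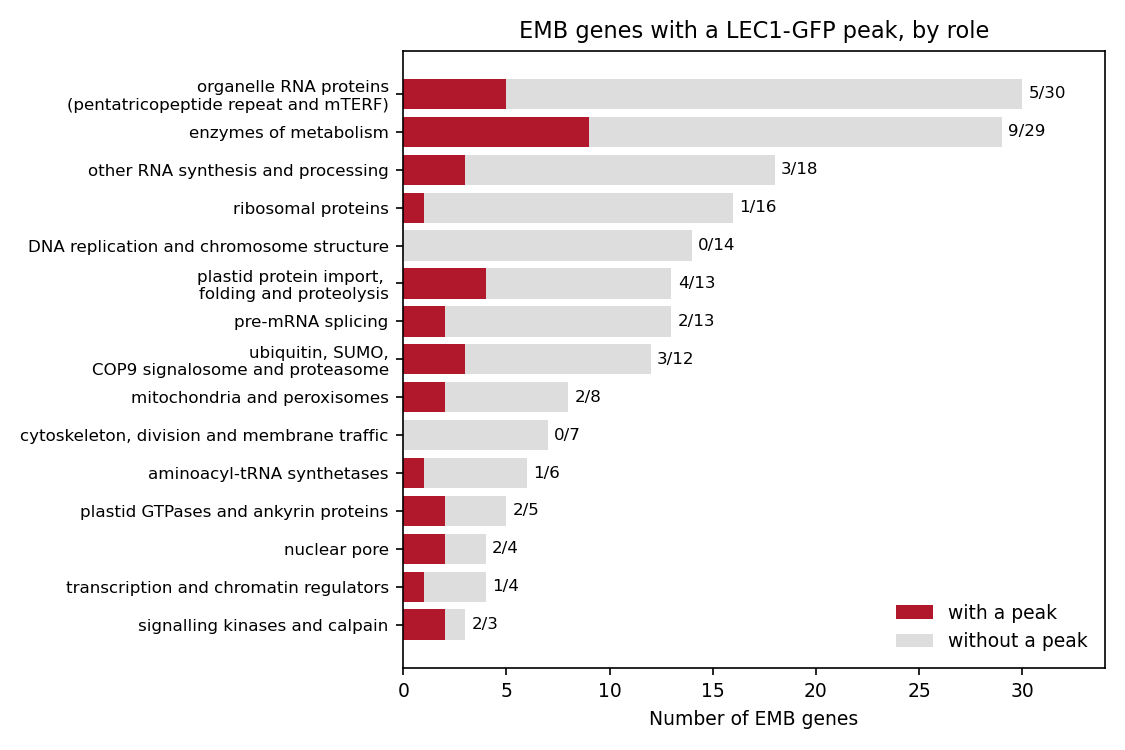
Number of EMB genes (horizontal axis) with a LEC1-GFP peak (red) and without one (grey) in 15 role groups, with the counts beside each bar. Metabolic enzymes had 9 of 29, ribosomal proteins 1 of 16, and DNA replication and chromosome structure 0 of 14.

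The 1 kb limit cut through a continuous range of distances. Just inside it were EMB140 at 969 bp, EMB93 at 841 bp and EMB269 at 823 bp, with scores of 2.93, 2.00 and 3.51. Just outside were emb1379 at 1005 bp, emb1220 at 1109 bp, EMB3108 at 1116 bp and NAC007 at 1173 bp, with scores of 2.13, 2.22, 2.35 and 2.01 at the nearest peak.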

How the data were processed

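Per the submitters' processing notes, reads were handled with Bowtie 0.12.7 and SAMtools 0.1.19 on TAIR10. A peak caller, its threshold and any pooling of replicates were not given in the sources used here. Each peak has, in the deposited list, a position and a score made by the authors, whose unit is not given. Peak edges lie on a 50 bp grid, and starts were raised by 1. Genes and names came from a RefSeq table of assembly TAIR10.1, so gene positions are not printed. Peak midpoints lay in genes for 34.0% of peaks, and for 64.0% and 62.7% after moves of 10000 bp to either side. Counting used Python 3.11.15 and SciPy 1.17.1 and was checked on simulated peaks.

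Acetyl-CoA carboxylase genes and LEC1 (7 genes in all) were left out of every set. Named genes have a symbol other than the locus tag. The members, lists and comparisons were chosen with earlier results of these data known. Role groups were assigned by hand to 182 members after the peaks had been seen, since the table gives no product names. The list of other embryo genes held 61 symbols: 8 were EMB members, 5 matched no gene, 2 matched only dropped genes, and 46 gave 45 genes. In all, 6 genes that share such a symbol for another function were dropped. Named genes followed a rule: the 25 highest scores, genes with 2 or more peaks, the genes at the 1 kb limit, and per role group the highest score and up to 3 genes without a peak. Any further gene was named with its values in view. No sequence was used here.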

Additional observations from a re-analysis of the deposited data

How the results depend on the processing

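The share of EMB genes with a peak was recomputed in 16 ways and its difference from the comparison genes in 20. The difference was below 0 in all 20, from -14.9 to -0.6 percentage points, against -11.2 as reported. It was smallest beside the 4 core families (-0.6), unnamed genes (-2.5), the MEE, EDA, PDE and UNE genes (-5.3) and all other protein-coding genes (-5.7). The first and the third of these comparisons were added after the data were seen, as was the restriction to members with a role group. The difference was also small with the 25% of peaks with the highest scores (-3.2). There both shares were lower by construction (5.51% against 8.70%), so that value does not show a weaker gap among strong peaks. The EMB share itself moved beyond its interval with a reach of 2000 bp (24.8%), the gene alone (9.45%), the nearest gene only (12.2%), and the 50% (9.84%) or 25% (5.51%) of peaks with the highest scores, settings that by construction admit more or fewer peaks. The difference in median score ran from -0.16 to 0.12 over 6 settings, so its sign was not stable. With the higher-scoring 50% of the peaks, plastid import, folding and proteolysis genes had 7.69% and aminoacyl-tRNA synthetases 0%. Counted by any overlap, 49.0% of the peaks lay in the EMB gene, against 20.4% by midpoint. No paired analysis was possible because the list carries no values per sample, and leaving out a replicate could not be run for the same reason. The read depth is unknown.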
